A study of Homo sapiens with 18 samples.

Results

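A pair of stably transduced MCF-10A lines were set directly against each other: shERCC4, which carries an shRNA against ERCC4, and shERCC5, which carries an shRNA against ERCC5. Each line gave 3 libraries of rRNA-depleted total RNA, so that 6 of the 18 libraries of the series entered the comparison. MCF-10A cells are mammary epithelial cells that divide in culture without being malignant and carry basal features, and all libraries came from them without any treatment named in the labels. A further group used here, shCON, carries a non-target shRNA and also has 3 libraries. It was not part of the comparison, and its values are printed as background. It entered 1 alternative, the fit of all 18 libraries. Every line, shCON included, was made with lentiviral particles of a single shRNA clone and puromycin selection of resistant colonies, so that an effect of the depletion and any other property of a line cannot be told apart. The labels call the replicates biological, without stating separate transductions, and the tests measure the spread between libraries of a line. Of 22031 genes in the deposited table, 14504 had at least 1 TPM in 3 or more of the 6 libraries and were tested. A gene that reached 1 TPM only in the 3 libraries of 1 line also passed, and could then only be called higher in that line. The list counts below include such genes. TPM is a transcript abundance corrected for length that sums to nearly the same total in each library, so read depth is unknown and no counting interval can be given.

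Both targets code for endonucleases of nucleotide excision repair (NER), the pathway that removes UV photoproducts and other bulky lesions. Once TFIIH has opened the helix and XPA and RPA have marked the damaged strand, ERCC4 (XPF), held by its partner ERCC1, cuts on the 5′ side of the lesion, and ERCC5 (XPG) cuts on the 3′ side. The ERCC1-ERCC4 pair also serves in the repair of interstrand crosslinks, while ERCC5 stabilises TFIIH. Mammary basal cells in culture can switch on parts of the keratinocyte programme, in which basal cells stop dividing, express suprabasal keratins and build a cornified envelope.

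Each target had its lower level in the line made to deplete it. ERCC4 (chr16:13920157-13952345, plus strand, GRCh38) had 5.05, 5.77 and 5.296 TPM in shERCC4, against 8.08, 6.38 and 10.1 TPM in shERCC5 and 12.5, 12.8 and 14.2 TPM in shCON. All shERCC4 libraries lay below all shERCC5 libraries, as they did for 21% of the genes tested, and both lines lay below every shCON library. The log2 fold change of shERCC4 over shERCC5 was -0.55 ± 0.22 (SE), which did not pass the test (limma on log2(TPM + 0.5), Storey q = 0.0759). ERCC5 (chr13:102807146-102876001, plus strand) had 27.5, 36.2 and 35.2 TPM in shERCC4, against 20.96, 21.2 and 24.7 TPM in shERCC5 and 47.1, 40.4 and 41.9 TPM in shCON. Here all shERCC4 libraries lay above all shERCC5 libraries, as for 9.98% of the genes tested, and shCON was highest. The difference of 0.55 ± 0.18 in log2 passed on q alone (limma q = 0.037), although it missed the fold of 1.5, and q exceeded 0.05 when the second or the third shERCC4 library or any shERCC5 library was left out (log2 fold change 0.48 to 0.62). With median-of-ratios scaling ERCC5 met both thresholds (log2 fold change 0.64, limma q = 0.00108). ERCC1, the partner of ERCC4, had 41.4, 65.3 and 59.8 TPM in shERCC4, against 68.6, 65.7 and 66.5 TPM in shERCC5. That difference did not pass (log2 fold change -0.29, limma q = 0.228).

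The libraries were not equally regular. One clone-named entry, CTD-2328D6.1, took 26.5% of all TPM in the first shERCC4 library, against 6.84% and 5.08% in the other shERCC4 libraries and 4.50% to 6.99% in shERCC5. The median gene had an SD of 0.283 (log2) in shERCC4 and of 0.128 in shERCC5. Pearson correlations across the genes tested, which are not independent replicates, were 0.968 to 0.977 between shERCC4 libraries and 0.973 to 0.975 between shERCC5 libraries. The third shERCC4 library stood nearer to shERCC5 (0.948 to 0.950) than the first and second did (0.934 to 0.938). Cytosolic ribosomal protein genes took 12.5% to 20.1% of the TPM in shERCC4, 17.8% to 18.8% in shERCC5 and 10.6% to 11.7% in shCON.

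A gene was called at a limma q under 0.05 and a fitted fold above 1.5. By this rule 513 genes were higher in shERCC4 than in shERCC5, which was 3.54% of the genes tested, and 1503 were lower, which was 10.4%, so that 13.9% were called in either direction. In bulk RNA, fewer cells in a state and less RNA of it per cell cannot be told apart. The median gene stood at -0.08 in log2. Scaling the 6 libraries by median of ratios put it at 0.01 and called 849 genes higher (5.85%) and 1422 lower (9.8%), so that the higher genes made up 37.4% of the calls with that scaling and 25.4% without it. Leaving out CTD-2328D6.1 called 943 higher and 1381 lower. Without the second shERCC4 library, 239 genes were called higher. No gene called in the comparison was called in the opposite direction by any of the 20 alternatives. Of the calls, 206 higher and 844 lower genes kept theirs in each of 11 of these, namely 3 rescalings, the omission of each of the 6 libraries, library weights and a fit of all 18 libraries.

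**Figure D1:**
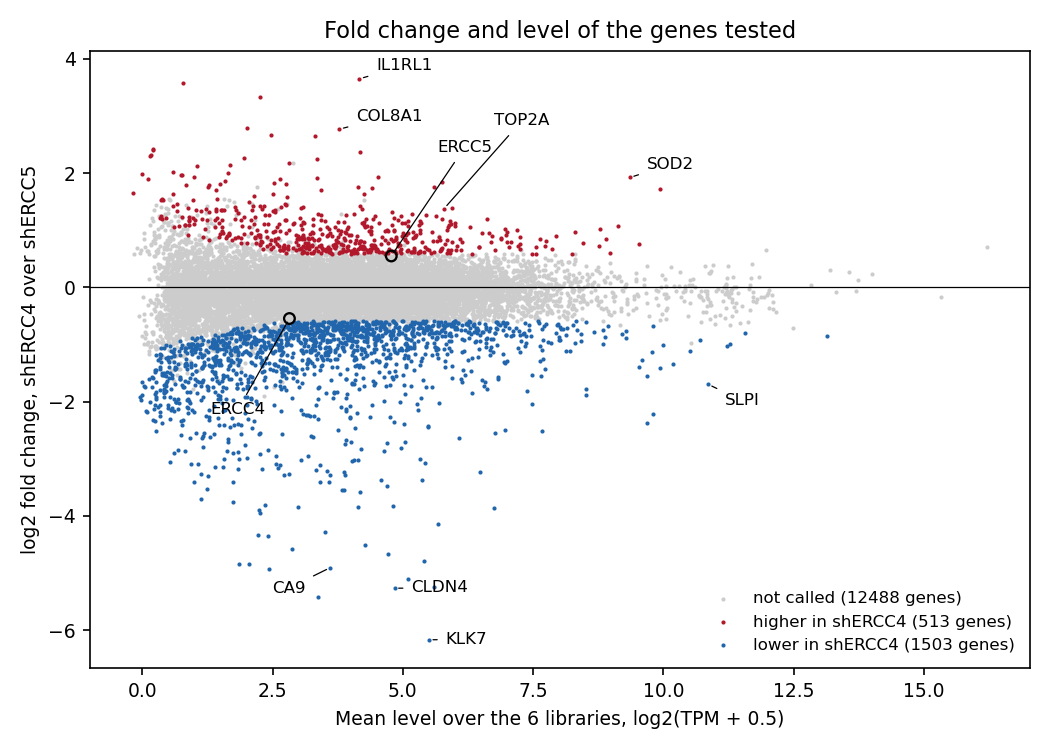
Log2 fold change of shERCC4 over shERCC5 (y axis) against the mean level over the 6 libraries in log2(TPM + 0.5) (x axis), 1 point per gene, with the 513 higher and 1503 lower genes coloured and the 2 targets ringed. The lower genes reach further from 0 than the higher genes do, with KLK7 at -6.17 and IL1RL1 at 3.65.

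Each call was also set beside shCON. For 454 of the 513 genes higher in shERCC4 (88.5%), the shERCC5 mean lay farther from the shCON mean than the shERCC4 mean did, and shCON exceeded both lines for 365 of them. For the 1503 lower genes the shERCC5 mean lay farther from shCON in 799 (53.2%), and the shCON mean lay between the lines for 829. Of the lower genes, 287 had every shERCC4 library below and every shERCC5 library above all shCON libraries. The third shERCC4 library was the closest of its line to the shERCC5 mean for 851 of the lower genes (56.6%), the second for 547 and the first for 105. For the higher genes the first was the closest for 254, the third for 236 (46.0%) and the second for 23. These are counts without a test.

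Kallikrein-related peptidases, secreted serine proteases that cut desmosomal proteins in the shedding of cornified cells, were lower in shERCC4 in 9 of the 10 members tested, and none was higher. Their median log2 fold change was -3.23, beside -0.08 over all genes tested. KLK7, the chymotrypsin-like enzyme of the stratum corneum (chr19:50976482-50984099, minus strand, GRCh38), had 2.91, 3.49 and 10.7 TPM in shERCC4, against 364, 369 and 418 TPM in shERCC5 and 73.9, 72.2 and 69.96 TPM in shCON. Its shERCC4 libraries all lay below, and its shERCC5 libraries all above, those of shCON, and the log2 fold change of -6.17 ± 0.32 (limma q = 1.86e-08) was the lowest of the named genes. KLK5, the trypsin-like activator of KLK7, had 1.53, 2.299 and 2.58 TPM in shERCC4, against 46.3, 49.7 and 54.01 TPM in shERCC5 and 37.4, 34.4 and 32.5 TPM in shCON. For this gene only shERCC4 stood far from shCON (log2 fold change -4.28 ± 0.20, limma q = 8.1e-09). KLK10 had 4.11, 9.297 and 11.03 TPM in shERCC4, against 205, 217 and 245 TPM in shERCC5 and 51.1, 43.2 and 55.9 TPM in shCON, with a log2 fold change of -4.79 ± 0.27 (limma q = 3.31e-08). KLK8 (log2 fold change -3.82), KLK14 (-4.85), KLK1 (-2.63), KLK11 (-2.62), KLK13 (-2.33) and KLK9 (-1.71) were called too, and all 9 calls held in the 11 settings named above, KLK8 standing at -4.41 without the third shERCC4 library. The genes lie next to each other on chromosome 19, and overlapping transcripts of neighbours could share reads. KLK14 passed the filter through its shERCC5 libraries alone. It had 0.05, 0.18 and 0.75 TPM in shERCC4, against 20.8, 22.4 and 22.1 TPM in shERCC5.

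SPINK5, the inhibitor of KLK5 and KLK7, moved in the same direction as the proteases. It had 2.66, 2.14 and 6.35 TPM in shERCC4, against 34.5, 36.8 and 33.99 TPM in shERCC5 and 1.23, 1.45 and 2.01 TPM in shCON, with a log2 fold change of -3.21 ± 0.28 (limma q = 2e-06). SPINK5 belongs to the suprabasal keratins and early differentiation genes, of which 18 of 23 were lower and 0 higher (median -1.50). CRABP2, which carries retinoic acid to its nuclear receptor, had 3.88, 5.95 and 16.5 TPM in shERCC4, against 284, 293 and 310.1 TPM in shERCC5 and 30.6, 36.1 and 33.6 TPM in shCON. The third shERCC4 library was the highest of its line, but remained below all shCON libraries, while shERCC5 lay above them (log2 fold change -5.24 ± 0.35, limma q = 1.11e-07). The transcription factors of this programme were lower as well: KLF4 had a log2 fold change of -1.95, OVOL1 of -3.002, GRHL3 of -1.38, ZNF750 of -1.67 and PRDM1 of -1.61. KRT13, a keratin of non-cornified stratified epithelium, had 1.101, 0.438 and 1.44 TPM in shERCC4, against 12.3, 11.3 and 9.11 TPM in shERCC5, and KRT4, its partner, had a log2 fold change of -2.098.

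Cornified envelope precursors were lower in 13 of 17 members tested, with none higher (2 with median-of-ratios scaling) and a median of -1.50. These proteins are crosslinked under the plasma membrane by transglutaminases. TGM1, the membrane-bound transglutaminase, had 26.3, 39.2 and 69.3 TPM in shERCC4, against 149.5, 159 and 147 TPM in shERCC5 and 20.1, 14.2 and 16.1 TPM in shCON, so that its shERCC5 libraries were far above both other lines (log2 fold change -1.86 ± 0.26, limma q = 0.000172). IVL (involucrin) had 0.317, 0.249 and 0.617 TPM in shERCC4, against 3.38, 2.84 and 3.56 TPM in shERCC5 and 6.26, 8.595 and 8.03 TPM in shCON, with the highest level in shCON (log2 fold change -2.09 ± 0.32, limma q = 0.000358). Of the lines compared, only shERCC5 brought IVL past the filter. PI3 (elafin), a protease inhibitor with a transglutaminase substrate domain, had 24.04, 31.6 and 28.5 TPM in shERCC4, against 405, 412 and 422 TPM in shERCC5 and 66.2, 72.5 and 77.4 TPM in shCON. Its shERCC5 libraries stood above the other lines without overlap (log2 fold change -3.87 ± 0.17, limma q = 7.6e-09). The small proline-rich genes SPRR1A (-3.55), SPRR1B (-2.64), SPRR2A (-3.84), SPRR2D (-3.58) and SPRR2E (-2.799) were all lower, although the near-identical SPRR2 copies could share reads. Without the third shERCC4 library SPRR2A stood at -4.58. SPRR2D had 3.33, 5.08 and 6.19 TPM in shERCC4, against 67.01, 62.7 and 57.3 TPM in shERCC5 and 36.8, 37.5 and 32.8 TPM in shCON, so that the lowest shERCC5 library exceeded the highest shERCC4 library by far.

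SPRR1A and SPRR1B are shown with the 250 bases before their RefSeq starts, because both carry TGANTCA, the letters that AP-1 binds, in capitals here (a palindrome, so that each match is on both strands). The SPRR1A window is chr1:152983831-152984080, plus strand, and that of SPRR1B is chr1:153030953-153031202, plus strand (both from RefSeq, GRCh38.p14).
SPRR1A: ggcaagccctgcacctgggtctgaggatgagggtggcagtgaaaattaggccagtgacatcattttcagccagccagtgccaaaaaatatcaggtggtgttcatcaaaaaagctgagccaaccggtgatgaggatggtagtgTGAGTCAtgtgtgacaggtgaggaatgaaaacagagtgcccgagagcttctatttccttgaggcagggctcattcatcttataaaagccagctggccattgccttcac
SPRR1B: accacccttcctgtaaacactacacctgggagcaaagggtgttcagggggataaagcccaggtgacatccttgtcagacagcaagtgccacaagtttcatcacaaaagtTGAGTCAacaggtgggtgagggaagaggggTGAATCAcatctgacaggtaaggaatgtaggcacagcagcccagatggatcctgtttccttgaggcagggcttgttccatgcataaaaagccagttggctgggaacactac
TGANTCA was found in 6 of the 10 windows at hand for the 17 cornified envelope genes tested, beside 7.71% of all 35116 RefSeq windows of 300 bases, which also hold 50 bases after the start. With a window for fewer than 80% of the members, the count does not describe the list. SPRR1A had 1.49, 2.28 and 13.7 TPM in shERCC4, against 48.98, 50.7 and 49.1 TPM in shERCC5. SPRR1B had 15.6, 21.2 and 55.2 TPM in shERCC4, against 158, 177 and 167 TPM in shERCC5. In both genes the third shERCC4 library was well above the other 2 and well below shERCC5, and without it the log2 fold change of SPRR1A was -4.41.

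**Figure D2:**
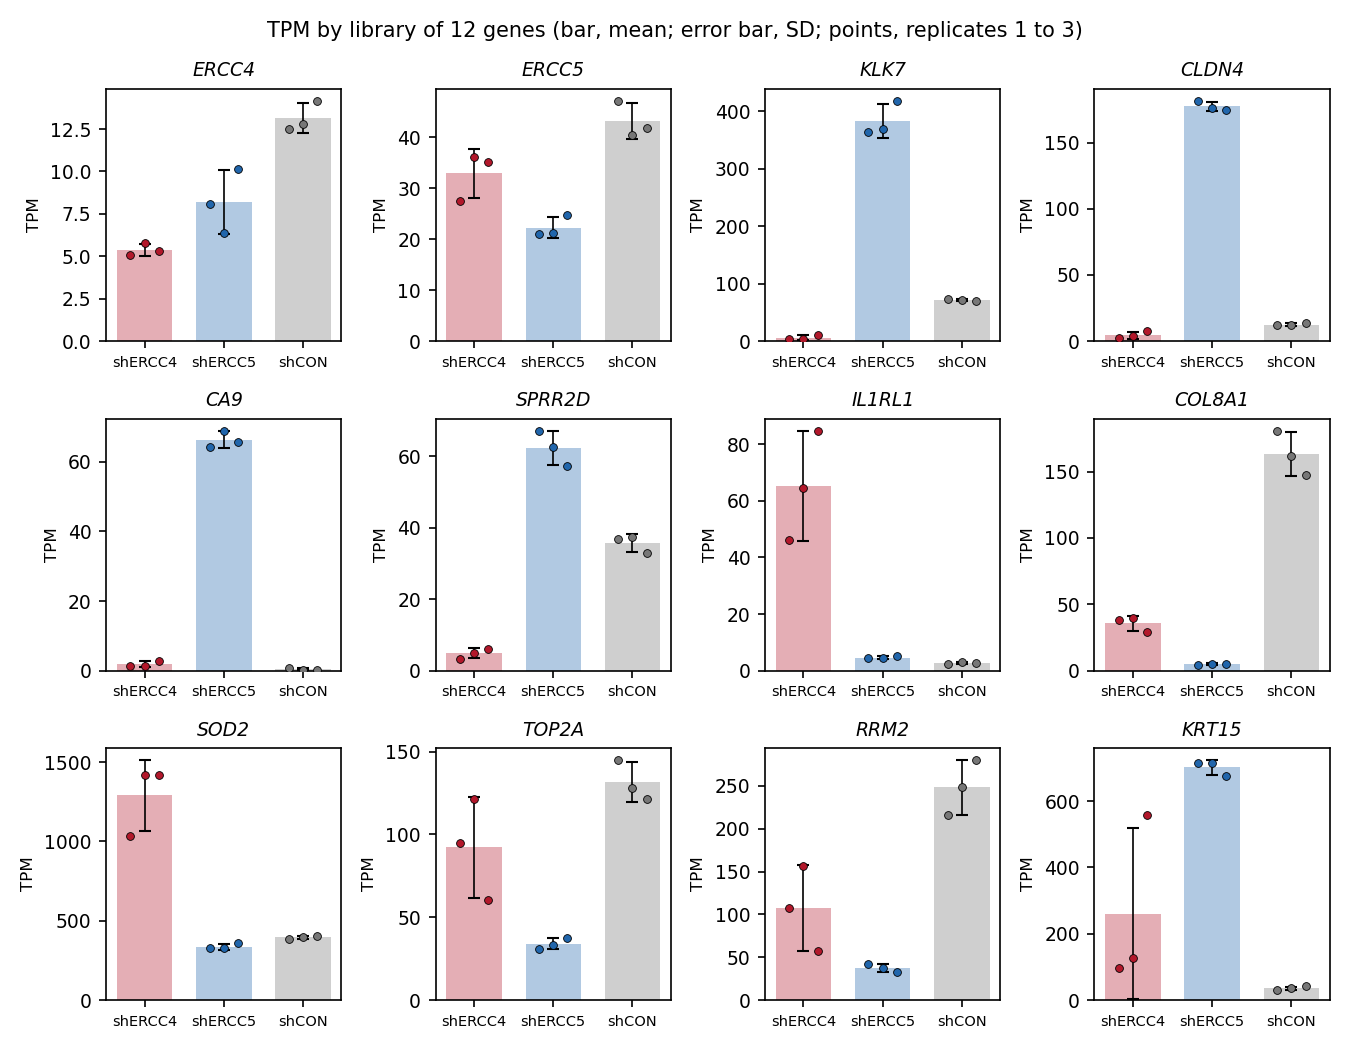
TPM by library (y axes) of 12 genes in shERCC4, shERCC5 and shCON, with the mean as a bar and the SD as an error bar (n = 3) and replicates 1 to 3 as points from left to right. KLK7, CLDN4, CA9 and SPRR2D are lower in every shERCC4 library than in any shERCC5 library, IL1RL1, COL8A1, SOD2, TOP2A and RRM2 are higher, and in KRT15 the third shERCC4 library (558 TPM) stands near shERCC5.

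Genes of epithelial junctions were lower in 21 of 38 members and higher in none (median -0.74). CLDN4, a tight junction claudin (chr7:73799542-73832693, plus strand), had 2.49, 3.56 and 7.63 TPM in shERCC4, against 181, 176 and 174 TPM in shERCC5 and 11.9, 12.01 and 13.8 TPM in shCON. That placed shERCC4 below and shERCC5 above all shCON libraries, at a log2 fold change of -5.26 ± 0.28 (limma q = 1.86e-08). OCLN (occludin) had 4.07, 5.51 and 7.03 TPM in shERCC4, against 36.5, 37.5 and 37.6 TPM in shERCC5 and 5.97, 5.13 and 5.59 TPM in shCON, and only shERCC5 stood apart (log2 fold change -2.67 ± 0.20, limma q = 3.91e-07). CDH1 (E-cadherin) had 26.4, 38.9 and 42.0 TPM in shERCC4, against 104, 105 and 111 TPM in shERCC5 and 49.3, 58.6 and 45.2 TPM in shCON, with shCON between the lines (log2 fold change -1.59 ± 0.19, limma q = 3.47e-05). The membrane protease PRSS8 (-1.74) and matriptase, ST14 (-1.53), were lower together with their inhibitor SPINT1 (-1.604), and so were the desmosomal genes DSC2 (-1.71), DSG3 (-1.57), JUP (-1.25) and PERP (-1.12).

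Keratins did not all go with the junction genes. Among simple epithelial keratins and luminal identity genes, 8 of 14 were lower and 0 higher. ELF3, an epithelial ETS transcription factor, had 2.21, 2.96 and 6.65 TPM in shERCC4, against 95.1, 86.7 and 94.1 TPM in shERCC5 and 17.1, 14.3 and 17.5 TPM in shCON, a log2 fold change of -4.51 ± 0.28 (limma q = 5.97e-08). CD24, a surface glycoprotein of luminal cells, had 20.3, 27.95 and 41.01 TPM in shERCC4, against 269, 266 and 284 TPM in shERCC5 and 149, 149.9 and 147 TPM in shCON (log2 fold change -3.23 ± 0.22, limma q = 1.24e-07). KRT8 was lower (-1.03), whereas its partner KRT18 had 177, 246 and 223 TPM in shERCC4, against 206, 196 and 229.8 TPM in shERCC5, overlapping values that did not pass (log2 fold change 0.02, limma q = 0.603). In the list of basal epithelial identity genes and stress keratins, which also holds genes other than keratins, 9 of 20 were lower and 0 higher. KRT17 (-1.56), KRT6B (-2.87), KRT81 (-1.42) and KRT16 (-0.93) were among them. KRT5, the defining basal keratin, had 1769, 2491 and 2813 TPM in shERCC4, against 2272, 2209 and 2415 TPM in shERCC5 and 1753, 1838 and 1917 TPM in shCON, levels that overlapped between the lines (log2 fold change 0.01, limma q = 0.618). KRT14, its partner, had 1232, 1769 and 1804 TPM in shERCC4, against 2269, 2239 and 2478 TPM in shERCC5, which did not overlap but missed the threshold (log2 fold change -0.56, limma q = 0.0756).

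A few genes split the shERCC4 libraries among themselves. KRT15, a keratin of basal stem and progenitor cells, had 96.4, 128 and 558 TPM in shERCC4, against 715, 714 and 676 TPM in shERCC5 and 31.3, 35.6 and 41.2 TPM in shCON. It was called lower (log2 fold change -1.88 ± 0.44, limma q = 0.00746), but not without shERCC4 replicate 1 or 2 (log2 fold change -1.59 to -1.39). S100A8 and S100A9, the subunits of calprotectin, showed the same library apart. S100A8 had 239, 339 and 1171 TPM in shERCC4, against 818, 696 and 666 TPM in shERCC5 and 69.7, 74.98 and 78.7 TPM in shCON. S100A9 had 606, 808 and 2398 TPM in shERCC4, against 2101, 1930.1 and 2175 TPM in shERCC5 and 169, 163 and 189 TPM in shCON. In both genes the third shERCC4 library was above the highest shERCC5 library while the other 2 were below the lowest, and neither passed (limma q = 0.214 for S100A8 and 0.0693 for S100A9). Without that library both were called lower, at -1.34 for S100A8 and -1.56 for S100A9, and KRT15 stood at -2.65.

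In the whole S100 family of small calcium-binding proteins, 7 of 16 tested members were lower and 0 higher, while 11 were lower and 1 was higher without the third shERCC4 library. S100P had 9.26, 11.4 and 24.1 TPM in shERCC4, against 124, 102 and 114 TPM in shERCC5 and 13.1, 10.6 and 20.2 TPM in shCON (log2 fold change -2.999 ± 0.27, limma q = 2.25e-06). S100A7 (psoriasin) had 1.94, 1.98 and 7.41 TPM in shERCC4, against 25.2, 30.03 and 39.04 TPM in shERCC5. Clade B serpins, intracellular protease inhibitors, were lower in 7 of 9. SERPINB2 (plasminogen activator inhibitor 2) had 1.38, 1.69 and 5.41 TPM in shERCC4, against 21.5, 23.5 and 23.97 TPM in shERCC5 and 5.08, 5.25 and 6.05 TPM in shCON (log2 fold change -3.02 ± 0.33, limma q = 1.62e-05), with its shERCC5 libraries above both other lines. SERPINB3 (-2.57) and SERPINB4 (-2.34), squamous cell carcinoma antigens so alike that reads could be split between them, were lower too. SERPINB4 passed the filter through its shERCC5 libraries alone. It had 0.14, 0.16 and 0.48 TPM in shERCC4, against 2.70, 2.84 and 4.49 TPM in shERCC5.

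Secreted antimicrobials and acute phase genes moved in both directions, 5 higher and 10 lower of 21, with 3 higher without the second shERCC4 library. LCN2, the iron-siderophore carrier lipocalin 2, had 0.218, 0.4296 and 1.21 TPM in shERCC4, against 19.6, 22.8 and 19.1 TPM in shERCC5 and 8.93, 7.09 and 5.66 TPM in shCON (log2 fold change -4.33 ± 0.29, limma q = 1.32e-07). SLPI, an inhibitor of neutrophil elastase, had 799.5, 1119.8 and 1222 TPM in shERCC4, against 3268, 3226 and 3538 TPM in shERCC5 and 776, 683 and 722 TPM in shCON, which made it one of the most abundant lower genes (log2 fold change -1.697 ± 0.22, limma q = 8.26e-05). DEFB1 (-1.98), PGLYRP3 (-2.16), SAA1 (-1.27) and SAA2 (-0.84) were lower as well, SAA1 and SAA2 being near-identical copies. The higher members were LTF (0.86), the acute phase protein genes SERPINA3 (0.97) and PTX3 (1.34), and C1R (0.66) and C1S (1.19), the proteases that start the classical complement pathway. C1S had 23.9, 29.4 and 46.7 TPM in shERCC4, against 13.9, 16.5 and 11.3 TPM in shERCC5 and 15.2, 16.3 and 13.8 TPM in shCON, the shERCC4 libraries being above both other lines. The call of C1R was lost without shERCC4 replicate 2 or 3 or shERCC5 replicate 1 or 3 (log2 fold change 0.50 to 0.65) and that of LTF without shERCC4 replicate 2 or 3 or any replicate of shERCC5 (log2 fold change 0.53 to 0.95).

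Genes of the hypoxia response and glycolysis were lower in 17 of 46 members and higher in none (median -0.51), although 2 were higher without the first shERCC4 library, and 11 were lower without the third shERCC5 library. CA9, carbonic anhydrase 9 of the cell surface and a sensitive target of hypoxia-inducible factor (chr9:35673856-35681159, plus strand), had 1.20, 1.45 and 2.84 TPM in shERCC4, against 64.2, 68.95 and 65.7 TPM in shERCC5 and 0.792, 0.312 and 0.2502 TPM in shCON. Only the shERCC5 libraries carried it at an appreciable level (log2 fold change -4.904 ± 0.23, limma q = 8.1e-09). EGLN3, a prolyl hydroxylase that marks the factor for degradation, had 0.545, 0.704 and 0.841 TPM in shERCC4, against 9.43, 11.98 and 9.53 TPM in shERCC5 and 2.04, 2.26 and 1.89 TPM in shCON (log2 fold change -3.18 ± 0.25, limma q = 5.6e-07). NDRG1, a stress-induced gene, had 37.5, 55.7 and 66.9 TPM in shERCC4, against 277, 291 and 321 TPM in shERCC5 and 107, 109 and 85.8 TPM in shCON, with shERCC4 below and shERCC5 above shCON (log2 fold change -2.498 ± 0.20, limma q = 9.41e-07). VEGFA, the angiogenic growth factor (-1.27), the glucose transporter SLC2A1 (-1.13), the mitophagy receptor BNIP3L (-1.001) and the glycolytic enzymes ALDOC (-2.07) and ENO2 (-1.41) were lower too. The list was not uniform. ADM, another target of the factor, had 4.67, 5.15 and 4.15 TPM in shERCC4, against 4.75, 4.54 and 5.11 TPM in shERCC5, overlapping levels that did not pass (limma q = 0.585). HIF1A, which codes for the regulated subunit of the factor, had 80.6, 106 and 112 TPM in shERCC4, against 102, 99.9 and 103 TPM in shERCC5 and did not pass either (limma q = 0.569).

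The CA9 promoter is shown because ACGTG, the core that hypoxia-inducible factor binds, occurs once in it. The 250 bases before the RefSeq start are chr9:35673678-35673927, plus strand, RefSeq, GRCh38.p14, and the capitals mark the match, which lies on the opposite strand at 18 to 14 bases before the start.
CA9: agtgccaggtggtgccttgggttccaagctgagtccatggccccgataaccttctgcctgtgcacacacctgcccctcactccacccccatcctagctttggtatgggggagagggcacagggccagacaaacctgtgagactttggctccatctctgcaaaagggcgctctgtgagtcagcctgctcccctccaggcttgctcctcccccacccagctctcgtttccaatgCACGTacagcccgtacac
ACGTG on either strand was found in 19 of the 40 windows at hand for the 46 hypoxia and glycolysis genes tested (47.5%), beside 21.4% of all 35116 windows and 26.5% of those of genes tested. For the hypoxia and glycolysis genes called lower it was found in 10 of 14 windows (71.4%). The letters were not particular to this list, since 14 of the 33 windows of mitosis and G2 genes held them too (42.4%). A match is a description of the letters and not evidence of binding.

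**Figure D3:**
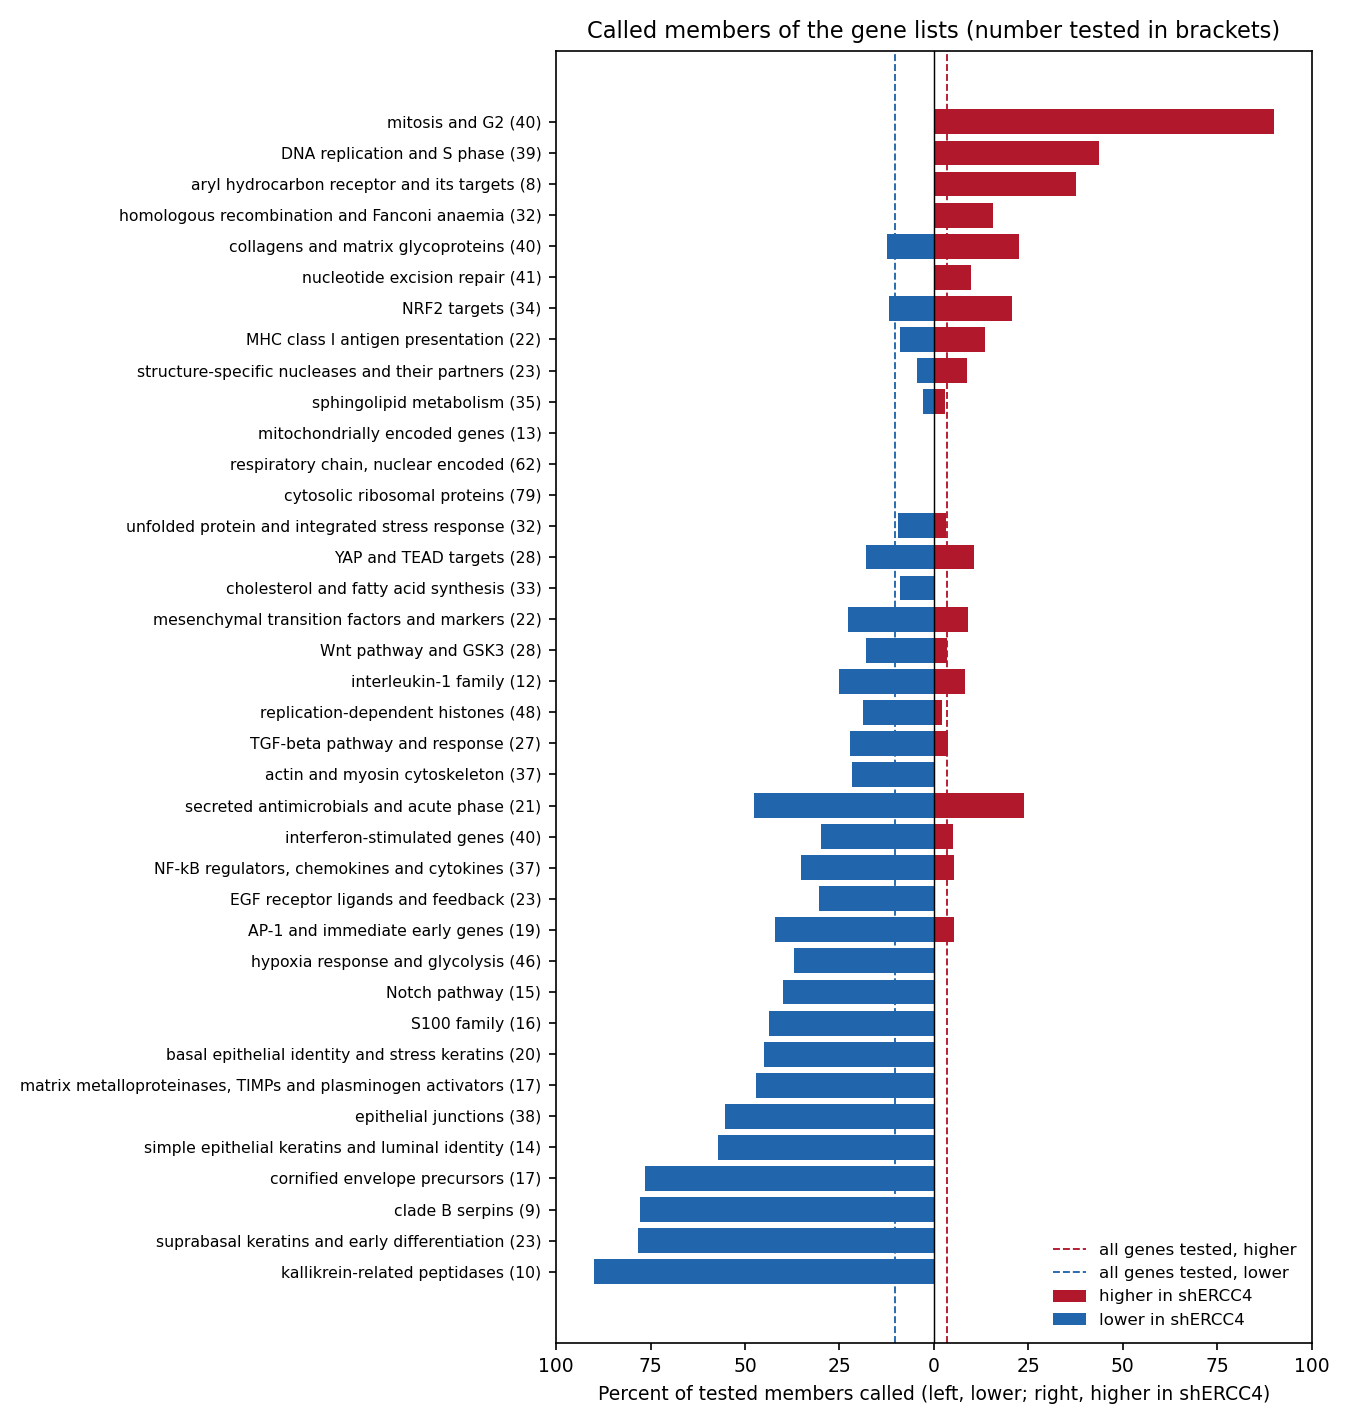
Percent of the tested members of 38 gene lists called lower (left) or higher (right) in shERCC4 than in shERCC5, with the number tested in brackets and the share over all genes tested as dashed lines (10.4% lower, 3.54% higher). Kallikreins, suprabasal, serpin and cornified envelope genes are at the lower end and mitosis genes at the upper end.

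The replicative programme went the other way. Of the 40 mitosis and G2 genes, 36 were higher in shERCC4 and 0 lower (median 0.99), and 21 of these calls held in the 11 settings, as many as were called without the second shERCC4 library. TOP2A, the topoisomerase that untangles chromosomes (chr17:40388516-40417950, minus strand), had 94.8, 122 and 60.6 TPM in shERCC4, against 31.04, 33.4 and 37.5 TPM in shERCC5 and 145, 128 and 121 TPM in shCON. The third shERCC4 library was the lowest of its line, yet above every shERCC5 library (log2 fold change 1.38 ± 0.22, limma q = 0.000522). MKI67, the proliferation antigen, had 28.9, 36.4 and 15.9 TPM in shERCC4, against 10.5, 9.46 and 10.8 TPM in shERCC5 and 60.97, 60.9 and 50.9 TPM in shCON. The mitotic cyclin gene CCNB1 had 158, 208 and 98.4 TPM in shERCC4, against 64.2, 60.7 and 67.9 TPM in shERCC5 and 139, 149 and 147 TPM in shCON. In all 3 genes shERCC5 was the lowest line. MAD2L1 of the spindle checkpoint (1.27), the centromere protein gene CENPF (1.12), the microtubule binder NUSAP1 (1.25) and AURKA (1.21) were higher too. By library, the median level of the list in log2(TPM + 0.5) was 5.50, 5.91 and 4.91 in shERCC4, against 4.44, 4.44 and 4.54 in shERCC5 and 6.001, 6.03 and 5.91 in shCON.

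Genes of DNA replication were higher in 17 of 39 members and lower in none (median 0.59). RRM2, the regulated subunit of ribonucleotide reductase, had 108, 157 and 57.1 TPM in shERCC4, against 42.3, 37.5 and 33.2 TPM in shERCC5 and 216, 249 and 279 TPM in shCON (log2 fold change 1.39 ± 0.28, limma q = 0.00247). CDC6, which loads the MCM helicase, had 17.3, 24.03 and 14.3 TPM in shERCC4, against 8.04, 7.91 and 9.54 TPM in shERCC5 and 45.1, 42.3 and 43.3 TPM in shCON (log2 fold change 1.05 ± 0.21, limma q = 0.00244). For both genes shCON was the highest line, and the lines did not overlap. Without the second shERCC4 library 6 replication genes were called higher, and without the third, 30. Replication-dependent histones did not follow: 1 was higher and 9 were lower of 48, among them HIST1H2AC (-1.04) and HIST1H2BD (-0.93), with reads that near-identical copies could share. Without the third shERCC4 library 6 histones were called higher and 12 lower.

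The promoters of TOP2A and of KIF23, a kinesin of the central spindle (log2 fold change 1.25), are shown because both hold TTTGAA, the cell cycle homology region, and CCAAT, the letters bound by NF-Y. The windows of 250 bases are chr17:40417897-40418146, minus strand, and chr15:69414099-69414348, plus strand (RefSeq, GRCh38.p14), each printed 5′ to 3′ in the direction of the gene. Capitals mark the matches on either strand, so that CCAAT also appears as its reverse complement.
TOP2A: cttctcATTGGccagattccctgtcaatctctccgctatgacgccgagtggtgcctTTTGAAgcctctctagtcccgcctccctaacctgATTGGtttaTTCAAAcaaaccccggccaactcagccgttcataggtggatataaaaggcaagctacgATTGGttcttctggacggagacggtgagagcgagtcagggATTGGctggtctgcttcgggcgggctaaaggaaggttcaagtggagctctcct
KIF23: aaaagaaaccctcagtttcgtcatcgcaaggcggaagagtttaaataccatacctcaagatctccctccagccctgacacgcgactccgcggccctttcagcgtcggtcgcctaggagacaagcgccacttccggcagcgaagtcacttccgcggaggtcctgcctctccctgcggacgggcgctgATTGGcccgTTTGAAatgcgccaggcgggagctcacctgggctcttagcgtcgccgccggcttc
TTTGAA was found in 22 of the 33 windows at hand for the 40 mitosis genes tested (66.7%), beside 15.2% of all windows. CCAAT was found in 24 of the 33 (72.7%), beside 34.6%.

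**Figure D4:**
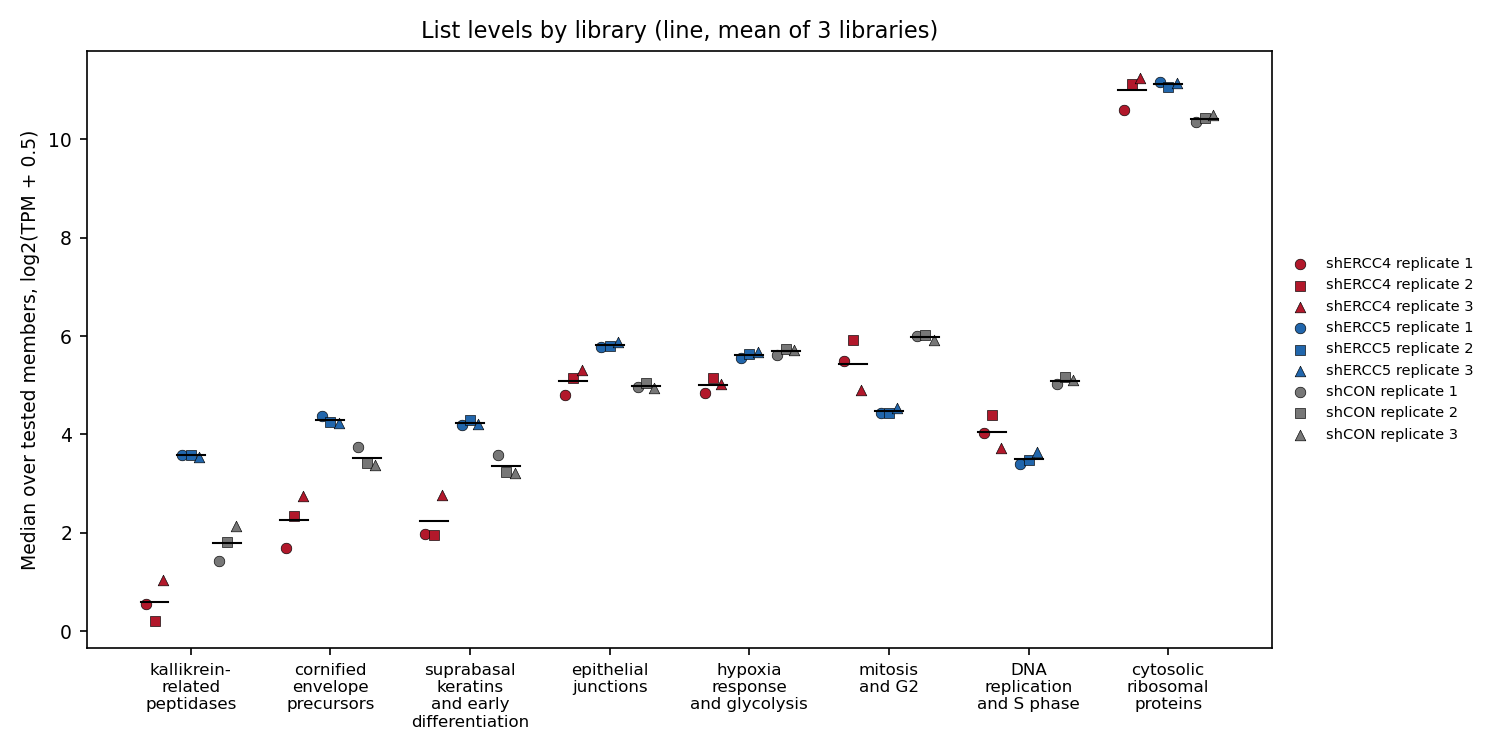
Median level of the tested members of 8 gene lists in log2(TPM + 0.5) (y axis) in each library of shERCC4, shERCC5 and shCON, with the mean of the 3 libraries as a line. In kallikrein, cornified envelope and suprabasal genes the shERCC4 libraries are below all others, and in mitosis genes the shERCC5 libraries are.

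Calls among repair genes other than the targets were mostly higher, beside 3.54% higher and 10.4% lower over all genes tested. Of the 41 NER genes tested, 4 were higher and 0 lower, and all of those also serve replication or transcription: the clamp PCNA, the clamp loader subunits RFC3 and RFC4, and CCNH of the CDK-activating kinase of TFIIH. PCNA had 161, 231 and 128 TPM in shERCC4, against 108, 96.5 and 104 TPM in shERCC5 and 234, 232 and 233 TPM in shCON (log2 fold change 0.71 ± 0.20, limma q = 0.0224). CCNH had 27.8, 34.3 and 33.4 TPM in shERCC4, against 20.5, 19.6 and 22.3 TPM in shERCC5 (log2 fold change 0.599 ± 0.17, limma q = 0.0203). With median-of-ratios scaling 7 NER genes were higher. All 4 calls were lost without the second shERCC4 library, where PCNA stood at 0.48 and CCNH at 0.54. Over the omissions of each of the 6 libraries, CCNH lost its call in 5, PCNA in 3, RFC4 in 2 and RFC3 in 1. DDB2, which recognises UV photoproducts in chromatin, had 16.5, 23.03 and 23.4 TPM in shERCC4, against 29.9, 29.6 and 33.9 TPM in shERCC5. It passed on q (0.0363, limma) at a log2 fold change of -0.57, short of the fold threshold. Among 23 structure-specific nucleases and partners, the flap endonuclease FEN1 (0.83) and the exonuclease EXO1 (0.75) were higher, and TREX1, which degrades cytosolic DNA (-0.87), was lower. EXO1 lost its call without shERCC4 replicate 1 or 2 or shERCC5 replicate 2 or 3 (log2 fold change 0.53 to 0.75). The scaffold SLX4, which binds ERCC4, had 2.52, 3.64 and 2.85 TPM in shERCC4, against 3.13, 2.899 and 3.22 TPM in shERCC5. MUS81, the nuclease of another complex on that scaffold, had 14.3, 21.01 and 15.8 TPM in shERCC4, against 15.9, 15.02 and 14.2 TPM in shERCC5. Both genes overlapped between the lines, and neither passed (limma q = 0.589 and 0.42). Of 32 genes of homologous recombination and the Fanconi anaemia pathway, 5 were higher (UBE2T, FANCI, XRCC2, FANCA and RMI1, at 0.69 to 1.002 in log2) and 0 lower. Without the second shERCC4 library 0 were called, and without the third, 11. None of these 5 calls held in all of the 11 settings named above.

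Where genes of matrix proteolysis were called, they were lower. In the list of matrix metalloproteinases, their inhibitors and plasminogen activators, 8 of 17 were lower and 0 higher. PLAU (urokinase) had 8.11, 10.6 and 10.1 TPM in shERCC4, against 65.8, 63.7 and 67.4 TPM in shERCC5 and 35.5, 38.8 and 40.1 TPM in shCON. PLAUR, its receptor, had 9.75, 13.8 and 13.97 TPM in shERCC4, against 77.9, 86.7 and 87.2 TPM in shERCC5 and 37.2, 31.9 and 34.9 TPM in shCON. Both genes had shERCC4 below and shERCC5 above every shCON library (log2 fold changes -2.72 ± 0.17 and -2.71 ± 0.18, limma q = 7.65e-08 and 1.24e-07). The membrane-bound MMP14 (-1.22), which activates MMP2, and MMP2 itself (-1.56) were lower too.

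Of 40 collagens and matrix glycoproteins tested, 9 were higher and 5 lower, beside 3.54% higher and 10.4% lower over all genes tested. The lower count was near its share. COL8A1, a short-chain network collagen, had 38.2, 39.8 and 29.2 TPM in shERCC4, against 3.98, 5.31 and 5.15 TPM in shERCC5 and 181, 162 and 148 TPM in shCON, so that both lines were below shCON and shERCC5 was the lower (log2 fold change 2.77 ± 0.20, limma q = 1.99e-07). COL12A1, a fibril-associated collagen, had 10.7, 12.4 and 8.47 TPM in shERCC4, against 2.13, 2.88 and 2.796 TPM in shERCC5 and 46.99, 44.5 and 44.7 TPM in shCON (log2 fold change 1.82 ± 0.23, limma q = 4.91e-05), again with shCON highest. SRGN (2.37), a proteoglycan core protein, VCAN (1.63) and the basement membrane collagen COL4A1 (1.33) were higher. SPARC, a collagen-binding glycoprotein, had 6.38, 9.52 and 4.899 TPM in shERCC4, against 35.8, 29.3 and 37.5 TPM in shERCC5 and 39.9, 52.2 and 51.9 TPM in shCON, with shERCC4 alone far below shCON (log2 fold change -2.26 ± 0.22, limma q = 5.63e-06). ECM1 (-2.31), COL13A1 (-1.76) and TNC (-1.27) were lower as well, and without the third shERCC4 library 8 members were lower.

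Of the mesenchymal genes, 2 were higher (CDH2, or N-cadherin, at 1.18, and the Wnt antagonist DKK1 at 1.84) and 5 lower of 22. Among the lower were LOXL2 (-1.87), ITGB6 (-1.35) and S100A4 (-1.12). E-cadherin and N-cadherin differed in opposite directions. Most calls of the mesenchymal list were lower, as were most calls over all genes tested (1503 lower and 513 higher). DKK1 had 81.1, 111 and 117 TPM in shERCC4, against 22.8, 28.3 and 33.96 TPM in shERCC5 and 286, 317 and 311 TPM in shCON (limma q = 1.26e-05). In the TGF-beta list 1 was higher and 6 were lower of 27, with 0 higher without the second shERCC4 library and 2 without the third. The higher count was near the 3.54% over all genes tested, of which 10.4% were lower. The ligand gene TGFB1 had 9.08, 14.2 and 10.9 TPM in shERCC4, against 27.5, 29.7 and 33.9 TPM in shERCC5 and 40.6, 38.2 and 37.8 TPM in shCON (log2 fold change -1.396 ± 0.19, limma q = 0.000152). Among 28 YAP and TEAD targets, 3 were higher and 5 lower, with 1 higher without the second shERCC4 library and 3 lower without the second shERCC5 library. CTGF, the best known of them, had 4.46, 5.78 and 10.2 TPM in shERCC4, against 2.38, 1.88 and 1.67 TPM in shERCC5 and 116, 122 and 126 TPM in shCON. Both lines were far below shCON, and shERCC5 was the lower (log2 fold change 1.496 ± 0.29, limma q = 0.00206). Actin and myosin cytoskeleton genes were lower in 8 of 37, and in 5 without the third shERCC5 library, while 1 was higher without the third shERCC4 library. TMSB4X, which sequesters actin monomers, had 364, 519 and 252 TPM in shERCC4, against 1919, 1926 and 1826 TPM in shERCC5 and 1041, 1132 and 1255 TPM in shCON (log2 fold change -2.38 ± 0.24, limma q = 6.7e-06).

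Calls among inflammatory genes were mostly lower. Of 37 NF-kB regulators, chemokines and cytokines, 13 were lower and 2 higher. IL8 (CXCL8), the neutrophil chemokine, had 8.85, 11.2 and 7.04 TPM in shERCC4, against 43.3, 43.1 and 48.6 TPM in shERCC5 and 15.2, 16.1 and 14.1 TPM in shCON (log2 fold change -2.28 ± 0.19, limma q = 1.27e-06). CCL28, a mucosal chemokine, had 5.12, 7.29 and 4.86 TPM in shERCC4, against 46.4, 51.5 and 50.6 TPM in shERCC5 and 5.47, 5.99 and 3.93 TPM in shCON, and the shERCC5 libraries alone stood apart (log2 fold change -3.02 ± 0.19, limma q = 7.61e-08). IL32 (-2.74), LIF (-2.17), TNFRSF6B (-2.46), a decoy receptor for death ligands, and CXCL1 (-1.05) were lower too. SOD2, the mitochondrial superoxide dismutase and a classical NF-kB target, was higher, as was BIRC3 (0.62), an inhibitor of cell death, though not without shERCC4 replicate 2 or 3 or any replicate of shERCC5 (log2 fold change 0.49 to 0.63). SOD2 had 1034, 1417 and 1421 TPM in shERCC4, against 326, 327 and 358 TPM in shERCC5 and 387, 397 and 405 TPM in shCON, with shERCC4 above both other lines (log2 fold change 1.92 ± 0.19, limma q = 6.69e-06).

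In the interleukin-1 family IL1RL1, the receptor of interleukin-33, had the largest log2 fold change of the genes named. It (chr2:102311502-102352037, plus strand) had 46.03, 64.3 and 84.8 TPM in shERCC4, against 4.33, 4.33 and 5.09 TPM in shERCC5 and 2.48, 3.14 and 2.73 TPM in shCON, so that only shERCC4 carried it at a high level (log2 fold change 3.65 ± 0.22, limma q = 4.15e-08). The antagonist IL1RN had 1.36, 2.26 and 6.36 TPM in shERCC4, against 23.3, 24.98 and 26.2 TPM in shERCC5 and 5.94, 4.68 and 5.801 TPM in shCON and was lower (log2 fold change -2.95 ± 0.35, limma q = 3.1e-05), and so were IL36G (-2.19), an epithelial cytokine, and SIGIRR (-0.87), a negative regulator. IL36G was scarce, with 0, 0 and 0.33 TPM in shERCC4, against 2.81, 1.72 and 2.16 TPM in shERCC5. It passed the filter through shERCC5 alone. Of 12 members tested 1 was higher and 3 were lower, and 3 were higher with median-of-ratios scaling.

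Interferon-stimulated genes were lower in 12 and higher in 2 of 40, with 1 higher without the second shERCC4 library. IFI27 had 4.91, 3.67 and 2.81 TPM in shERCC4, against 47.2, 43.97 and 54.6 TPM in shERCC5 and 19.4, 23.01 and 18.1 TPM in shCON (log2 fold change -3.54 ± 0.21, limma q = 3.91e-08). IFIT1, which binds foreign RNA, had 1.72, 2.72 and 2.68 TPM in shERCC4, against 12.2, 10.6 and 11.1 TPM in shERCC5 and 3.15, 2.68 and 2.31 TPM in shCON (log2 fold change -2.05 ± 0.22, limma q = 1.54e-05). IFI44L went the other way at 0.98. In MHC class I presentation, the peptide transporter TAP2 (0.89), the immunoproteasome subunit PSMB9 (1.199) and the proteasome activator PSME2 (0.82) were higher and the non-classical HLA-E (-0.77) and HLA-F (-0.81) lower, of 22 tested. Over all genes tested 3.54% were higher and 10.4% lower, so that the lower count was near its share. HLA genes share reads among themselves, so their values are uncertain.

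Among signalling genes, those lower in shERCC4 were 7 of 23 for EGF receptor ligands and feedback (12 without the third shERCC4 library), 8 of 19 for AP-1 and immediate early genes and 6 of 15 for the Notch pathway. TGFA, a ligand of the EGF receptor, had 9.64, 11.9 and 10.1 TPM in shERCC4, against 29.2, 25.8 and 30.1 TPM in shERCC5 and 13.5, 13.1 and 13.2 TPM in shCON (log2 fold change -1.39 ± 0.18, limma q = 6.01e-05). JUN, a subunit of AP-1, had 10.7, 14.6 and 14.1 TPM in shERCC4, against 33.8, 32.2 and 33.2 TPM in shERCC5 and 40.5, 39.9 and 44.2 TPM in shCON, with shERCC4 far below and shERCC5 a little below shCON (log2 fold change -1.31 ± 0.18, limma q = 0.000119). EGR1, an immediate early zinc finger factor, had 18.7, 26.8 and 29.7 TPM in shERCC4, against 61.9, 62.8 and 66.3 TPM in shERCC5 and 26.8, 25.4 and 28.3 TPM in shCON, and here shERCC5 stood apart from the other lines (log2 fold change -1.35 ± 0.19, limma q = 0.00015). DUSP1, a phosphatase that switches off MAP kinases, was the 1 higher member of the AP-1 list (0.91). HES2 (-1.99), HES1 (-0.88) and NOTCH3 (-1.24) were lower. EGFR itself had 57.4, 68.9 and 63.8 TPM in shERCC4, against 53.9, 56.6 and 64.5 TPM in shERCC5, which overlapped and did not pass (limma q = 0.449).

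CDKN1A (p21), the inhibitor of cyclin-dependent kinases, had 85.98, 124 and 77.2 TPM in shERCC4, against 165, 166 and 173 TPM in shERCC5 and 255, 276 and 297 TPM in shCON (log2 fold change -0.84 ± 0.19, limma q = 0.00575). GADD45A, a damage-induced cell cycle inhibitor, had 26.3, 34.5 and 43.2 TPM in shERCC4, against 97.1, 90.03 and 83.9 TPM in shERCC5 and 48.3, 64.02 and 70.2 TPM in shCON (log2 fold change -1.39 ± 0.19, limma q = 0.000129). GDF15, a secreted stress factor, had 8.71, 14.1 and 8.28 TPM in shERCC4, against 32.8, 32.1 and 38.4 TPM in shERCC5 and 14.2, 11.8 and 14.7 TPM in shCON (log2 fold change -1.72 ± 0.21, limma q = 4.07e-05). In GADD45A and GDF15 shERCC5 lay above the other lines. In the Wnt list DKK1 was higher and 5 of 28 were lower, among them WNT5A (-1.32) and WNT6 (-2.31), and 3 were higher with median-of-ratios scaling. The higher count was near the 3.54% over all genes tested, of which 10.4% were lower. WNT6 was scarce, with 0.08, 0.16 and 0.20 TPM in shERCC4, against 2.67, 3.51 and 2.11 TPM in shERCC5. It passed the filter through shERCC5 alone.

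Targets of NRF2, the regulator of the antioxidant response, were higher in 7 and lower in 4 of 34, against 4 and 2 without the second shERCC4 library and 12 and 3 with median-of-ratios scaling. Over all genes tested 3.54% were higher and 10.4% lower, so that the lower count was near its share. TXNRD1, thioredoxin reductase, had 67.9, 88.6 and 63.6 TPM in shERCC4, against 42.3, 42.5 and 42.9 TPM in shERCC5 and 375, 407 and 399 TPM in shCON (log2 fold change 0.76 ± 0.17, limma q = 0.00565). AKR1C1, a steroid-reducing enzyme with near-identical relatives, had 146, 197 and 193 TPM in shERCC4, against 88.2, 84.8 and 99.5 TPM in shERCC5 and 273, 262 and 248 TPM in shCON (log2 fold change 0.96 ± 0.18, limma q = 0.00138). For both genes shCON was highest and shERCC5 lowest. HMOX1, heme oxygenase, was lower (-1.05). CYP1B1 (1.26), ALDH3A1 (0.94) and NQO1 (0.67), targets of the aryl hydrocarbon receptor, were higher, and none of the 8 members tested was lower, although 2 were without the third shERCC4 library and 1 with median-of-ratios scaling. The call of NQO1 was lost without shERCC4 replicate 2 or shERCC5 replicate 1 or 2 (log2 fold change 0.50 to 0.66). In the unfolded protein and integrated stress response, MTHFD2, an enzyme of mitochondrial folate metabolism, had 79.0, 102 and 87.4 TPM in shERCC4, against 28.2, 23.1 and 26.9 TPM in shERCC5 and 83.3, 88.4 and 85.8 TPM in shCON, so that shERCC5 alone stood apart (log2 fold change 1.76 ± 0.17, limma q = 4.96e-06). ATF3 (-1.54), PPP1R15A (-1.12) and TRIB3 (-0.63) were lower, TRIB3 not without shERCC4 replicate 1 or any replicate of shERCC5 (log2 fold change -0.66 to -0.45). Of the 32 members tested 1 was higher and 3 were lower, near the shares over all genes tested (3.54% higher and 10.4% lower).

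Housekeeping lists held few or no calls. None of the 79 cytosolic ribosomal protein genes, 62 nuclear genes of the respiratory chain or 13 mitochondrially encoded genes was called by limma, with medians of -0.11, 0.03 and 0.23. Without the third shERCC4 library 2 ribosomal protein genes were lower, and without the first, 3 respiratory chain genes were higher. NDUFB3, of complex I, had 78.2, 110.2 and 108 TPM in shERCC4, against 76.8, 65.8 and 58.99 TPM in shERCC5. It passed on q (limma q = 0.0451) but missed the fold of 1.5. Cholesterol and fatty acid synthesis genes were lower in 3 of 33 (SCD, SREBF1 and MSMO1), near the 10.4% over all genes tested. The count was 0 without the first or the second shERCC4 library, 6 without the third and 1 with median-of-ratios scaling. In sphingolipid metabolism the ceramide synthase gene CERS4 was lower (-2.903) and the receptor gene S1PR3 higher (0.83), of 35 tested, the call of S1PR3 being lost without shERCC4 replicate 2 or shERCC5 replicate 1 or 2 (log2 fold change 0.68 to 0.77). Without the third shERCC4 library 3 sphingolipid genes were lower.

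Among the 15 named genes with the largest fold changes upward were some that belong to no list. MYBPC1, a myosin-binding protein of slow muscle, had 10.96, 15.01 and 19.5 TPM in shERCC4, against 0.649, 0.626 and 2.22 TPM in shERCC5 and 8.98, 6.72 and 4.97 TPM in shCON (log2 fold change 3.33 ± 0.33, limma q = 6.1e-06). HSD17B2, which oxidises oestradiol to oestrone, had 13.1, 18.9 and 9.91 TPM in shERCC4, against 1.74, 1.83 and 1.59 TPM in shERCC5 and 4.18, 4.19 and 5.595 TPM in shCON (log2 fold change 2.66 ± 0.25, limma q = 3.23e-06). AOX1, aldehyde oxidase, had 20.3, 27.97 and 17.98 TPM in shERCC4, against 3.68, 4.27 and 4.56 TPM in shERCC5 and 76.1, 86.6 and 76.4 TPM in shCON (log2 fold change 2.25 ± 0.21, limma q = 3e-06). In the first and the second of these shERCC4 lay above shCON, and in AOX1 both lines lay below it. RGCC (2.79), SLC16A14 (2.14), ZNF704 (1.87), SFTPB (1.81), C12orf39 (1.91) and C12orf77 (1.92) completed this group. C12orf77 had 35.2, 32.5 and 75.3 TPM in shERCC4, against 29.5, 9.14 and 5.16 TPM in shERCC5 and 0.286, 1.49 and 4.66 TPM in shCON, so that the shERCC5 libraries were widely spread, and its log2 fold change was 2.60 without the first shERCC5 library and 1.39 without the third.

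At the other end, SCGB1A1, the club cell secretory protein, had 0, 1.14 and 4.37 TPM in shERCC4, against 65.4, 77.5 and 59.7 TPM in shERCC5 and 0.273, 0.698 and 0 TPM in shCON (log2 fold change -5.41 ± 0.53, limma q = 5.63e-06), and its log2 fold change was -6.22 without the third shERCC4 library and -4.58 without the first. CASP14, the caspase of keratinocyte terminal differentiation, had 0.3098, 0.3602 and 0.853 TPM in shERCC4, against 25.02, 27.5 and 36.5 TPM in shERCC5 and 0.784, 1.13 and 0.713 TPM in shCON. PADI2, a peptidylarginine deiminase, had 0.685, 0.534 and 2.25 TPM in shERCC4, against 32.6, 36.1 and 37.5 TPM in shERCC5 and 0.585, 0.5005 and 0.477 TPM in shCON. For these 3 genes only shERCC5 carried an appreciable level. MUC16, the mucin known as CA125, had 0.441, 0.541 and 1.16 TPM in shERCC4, against 22.9, 24.1 and 23.3 TPM in shERCC5 and 4.79, 3.36 and 3.91 TPM in shCON (log2 fold change -4.35 ± 0.25, limma q = 3.31e-08). MGP, an inhibitor of calcification, had 2.397, 3.88 and 10.6 TPM in shERCC4, against 133, 133 and 128 TPM in shERCC5 and 11.2, 5.25 and 13.02 TPM in shCON (log2 fold change -4.66 ± 0.34, limma q = 3.16e-07). LEMD1 (-4.85) and the pseudogene IGFL1P1 (-5.10) belonged to the same group. CASP14 and LEMD1 passed the filter through their shERCC5 libraries alone.

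Markers of the basal epithelium were abundant in every library. The summed level of 9 basal markers was 4028 to 5779 TPM in shERCC4, 6723 to 7499 TPM in shERCC5 and 5086 to 5441 TPM in shCON. Of these 9, KRT17 (-1.56), CDH3 (-0.75) and TRIM29 (-0.69) were lower and 0 higher, CDH3 not without shERCC4 replicate 1 (log2 fold change -0.57) and TRIM29 not without shERCC4 replicate 1 or 2 or shERCC5 replicate 2 or 3 (log2 fold change -0.71 to -0.52). TP63, the defining transcription factor of basal cells, had 15.6, 18.6 and 31.9 TPM in shERCC4, against 30.1, 29.7 and 32.9 TPM in shERCC5, without passing (limma q = 0.0915). Fibroblast markers summed to 109 to 148 TPM in shERCC4, 105 to 113 TPM in shERCC5 and 246 to 267 TPM in shCON, and 3 of them were tested with none called, while LUM, COL3A1 and DPT stayed under the filter of 1 TPM. Leukocyte markers summed to 14.6 to 23.7 TPM in shERCC4, 32.6 to 37.1 TPM in shERCC5 and 36.8 to 48.5 TPM in shCON, with LAPTM5 (-3.00) and CD53 (-2.901) lower of 5 tested. Both LAPTM5 and CD53 passed the filter through their shERCC5 libraries alone. Endothelial markers summed to 7.43 to 11.6 TPM in shERCC4, 14.4 to 17.8 TPM in shERCC5 and 8.32 to 11.9 TPM in shCON, with KDR (-0.97) and EMCN (-0.85) lower of 3 and VWF under the filter. Neither call held without the second or without the third shERCC5 library (-0.97 to -0.74). The part of such signal in the results above was not tested.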

How the data were processed

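RNA of the MCF-10A lines was depleted of rRNA and sequenced by the authors, who quantified transcripts with kallisto (0.43.1 in the submitters' processing notes) on hg38 and deposited TPM values per gene symbol. The transcript annotation and the summing to genes are not given in the sources used here, and depth is unknown. Of the 22031 symbols, 22 were written as dates by spreadsheet conversion and were kept as they stand. The 3 shERCC4 and 3 shERCC5 libraries were compared on log2(TPM + 0.5) without further scaling, over 14504 genes with at least 1 TPM in 3 of the 6, using limma 3.58.1 in R 4.3.3 with a mean-variance trend. Storey's q (lambda 0.5) under 0.05 and a fold above 1.5 made a call, and all tests were two-sided. The script was tested on simulated data. Positions are from GENCODE (GRCh38, symbols with a single gene) and promoters from RefSeq.

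The lines compared, the gene lists and the rule for named genes were chosen with earlier results of these data known. Named were the targets and called NER genes, the 15 largest and 15 smallest fold changes among called, non-overlapping genes of 5 TPM or more with a proper symbol, and up to 4 called members of each list by smallest p (or 2 where none was called). Other list members named in the text were chosen after their values were seen. The alternatives covered the pseudocount, the filter, scaling, the libraries fitted, library weights, the adjustment, the fold threshold, the spread, a replicate block and the omission of each library, and 1 was added after seeing the data, median-of-ratios scaling with the first shERCC4 library left out. A few items withheld from this text are not reported here.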

Additional observations from a re-analysis of the deposited data

Results flagged for a closer look

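For 12 of the 30 genes with the largest fold changes in either direction, the libraries of the lines lay on opposite sides of all 3 shCON libraries. In 9 of these every shERCC4 library was below and every shERCC5 library above the shCON libraries. Their log2 fold changes of shERCC4 over shERCC5 were -6.17 for KLK7, -5.26 for CLDN4, -5.24 for CRABP2, -5.10 for the pseudogene IGFL1P1, -4.85 for KLK14, -4.79 for KLK10, -4.51 for ELF3, -4.35 for MUC16 and -4.33 for LCN2. In the other 3 genes every shERCC4 library was above and every shERCC5 library below the shCON libraries, with log2 fold changes of 1.92 for SOD2, 2.66 for HSD17B2 and 3.33 for MYBPC1. The difference between the lines was tested in the limma fit, and their positions beside shCON were not. Among all calls this pattern was found for 287 of the 1503 lower genes and 15 of the 513 higher genes.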

How the results depend on the processing

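Called higher in shERCC4 were 312 genes without a filter, 849 with median-of-ratios scaling, 1035 with quantile normalization, 943 without CTD-2328D6.1, 798 with library weights, 37 with the fold threshold inside the test and 101 with an unmoderated spread, against 513 in the report. Called lower were 339 with the fold threshold inside the test and 568 with an unmoderated spread, against 1503. With each library left out in turn, 239 to 728 were higher and 1159 to 2114 lower. The higher genes made up 25.4% of the calls as deposited, 37.4% with median-of-ratios scaling, 44.98% with quantile normalization, 40.6% without CTD-2328D6.1 and 37.2% with library weights, and the median of all genes stood at 0.01, 0.05, 0.03 and 0.01 in these 4 settings, against -0.08 as deposited. The cause was not tested.

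ERCC4 passed with median-of-ratios scaling (-0.46, limma q = 0.0489) and in the fit of all 18 libraries (-0.55, limma q = 0.0390). ERCC4 ranged over -0.70 to -0.39 as single libraries were left out. ERCC5 met both thresholds with median-of-ratios scaling (0.64, limma q = 0.00108) and with quantile normalization (0.63, limma q = 0.00106). It also met them without CTD-2328D6.1 (0.66, limma q = 0.00106) and with library weights (0.66, limma q = 0.00421). Staying at 0.55, ERCC5 did not pass without a filter (limma q = 0.0651), with Benjamini-Hochberg adjustment (0.059), with the fold threshold inside the test (1.00) or with an unmoderated spread (0.102). It ranged over 0.48 to 0.67 as libraries were left out. Uncalled genes near 0 changed sign: ADM at 0.0422 with median-of-ratios scaling, 0.137 with quantile normalization, 0.0646 without CTD-2328D6.1 and -0.11 to 0.0299 as libraries were left out. HIF1A stood at 0.0462, 0.0617 and 0.0702 in those scalings, at 0.0575 with library weights, at 0.0703 with median-of-ratios scaling and no first shERCC4 library, and at -0.14 to 0.0984 as libraries were left out. SLX4 stood at 0.0331, 0.16, 0.0548, 0.0638 and 0.0307 in the same 5 settings and at -0.17 to 0.0552 as libraries were left out. KRT5 ranged over -0.13 to 0.20 and KRT18 over -0.0798 to 0.15 as libraries were left out. No called gene changed sign in a call under any alternative.

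The libraries were compared without pairing by replicate number. Deviations of same-numbered libraries correlated at 0.042, 0.018 and 0.079, and those of differently numbered libraries at -0.081 to 0.042. Values so small cannot decide whether the numbers pair the samples. With the replicate number as a block, 670 genes were higher and 1748 lower, ERCC4 remained at -0.55 (limma q = 0.0544) and ERCC5 at 0.55 (limma q = 0.026). Depth is unknown, so low TPM values have no counting error, and 1 line per shRNA limits what the groups stand for.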

Other observations

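Metallothioneins, small cysteine-rich proteins that bind zinc and copper, were in none of the lists and were looked at after the values were seen. MT1X had 1405, 1991 and 1996 TPM in shERCC4, against 521, 529 and 571 TPM in shERCC5 and 332, 303 and 289 TPM in shCON, with shERCC4 above both other lines (log2 fold change 1.71 ± 0.20, limma q = 3.33e-05). MT1E was higher as well (log2 fold change 1.02 ± 0.18, limma q = 0.00127). MT2A had 4504, 6746 and 4235 TPM in shERCC4, against 3034, 3172 and 3470.4 TPM in shERCC5, without overlap and without passing (limma q = 0.0697). The MT1 genes are near-identical copies that could share reads.

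By annotation, 444 of 12092 protein coding genes tested were higher in shERCC4 (3.67%) and 1314 were lower (10.9%), near the shares over all genes tested (3.54% and 10.4%). Chromosome 19 held 941 genes tested, of which 14 were higher and 152 lower (16.2%, beside 10.4% of all genes tested), with a median log2 fold change of -0.16. Its kallikreins account for 9 of the lower calls.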
